A study of Rattus norvegicus with 9 samples.

Results

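The cytosolic ribosomal protein genes are the protein-coding genes whose symbols name a protein of the large (Rpl) or small (Rps) ribosomal subunit, together with Rplp0, Rplp1, Rplp2 and Rpsa; the ribosomal S6 kinases were left out. By this rule on symbols 87 of the 34267 rows of the deposited expression table were chosen, 52 of the large and 35 of the small subunit, under 81 symbols. Polyadenylated RNA had been sequenced from primary cultures of wild-type rat condylar cartilage progenitor cells, the stem-like cells of jaw joint cartilage, in 9 libraries. P3 (3 libraries) held cells cultured to passage 3 and was the control, P9 (3 libraries) held cells taken on to passage 9 as a model of replicative senescence, and FFSS (3 libraries) held passage 3 cells treated with flow fluid shear stress as a model of mechanically induced degeneration. The study asked what the models have in common. Both models were made in culture, and the labels do not tie the 3 libraries of a group to different animals or dishes. A p-value here therefore reflects how far these libraries vary, which may be technical.

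A ribosome joins a small subunit, which reads the messenger RNA, to a large subunit, which links amino acids, and each protein subunit is normally present in a single copy per ribosome apart from the P1 and P2 proteins of the stalk. Cells make these proteins in balance, and the mRNAs of most of them begin with a run of pyrimidines after a C, the 5′ terminal oligopyrimidine (TOP) motif, through which mTOR and LARP1 tie their translation to growth signals. Ribosomal protein mRNAs are short and abundant, several members serve as loading controls in expression work, and Rpl5 and Rpl11 are known to bind Mdm2 and so to link faulty ribosome assembly to p53.

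RefSeq (build GRCr8) gave 62 promoter entries for 61 of the 81 symbols. A TOP-like start was taken as a C followed by at least 4 bases that are each C or T, on the transcribed strand, beginning within 5 bases of the annotated start. It was found in 35 of the 62 entries (56.5%), against 17.0% of all 33469 promoter entries and 24.2% of the 62 entries of mitochondrial ribosomal proteins. With the C at the annotated start itself, the shares were 30.6%, 2.63% and 3.23%. In 31 of the 62 entries the window sat at the outermost start of the gene in the same reference, and in the others elsewhere, so the letters depend on the annotation. Entries were matched by symbol alone and may belong to another locus than the member row. The TOP-like Rps9l1 entry lies on chromosome X and its member row on chromosome 1. The TOP-like Rpl29 window begins at 115947633 on chromosome 8, and the gene start of the reference is 115056443. A match is a description of these letters and no match says only that they are not in this window. Each window below runs from 10 bases before the annotated start to 20 bases from it, with the TOP-like run in capitals. Shown first are abundant members and common loading controls:
Rplp0: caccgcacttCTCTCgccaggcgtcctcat
Rplp1: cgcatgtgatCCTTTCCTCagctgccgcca
Rpl19: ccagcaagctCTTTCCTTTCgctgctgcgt
Rps18: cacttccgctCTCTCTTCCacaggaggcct
Next are Rpl17, Rpl12 and Rps4y2, which were called in a comparison, and Rpl39, whose paralog Rpl39l was called:
Rpl17: ttcgcgcttcCTCTTCCTgttagcggccag
Rpl12: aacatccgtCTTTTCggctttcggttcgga
Rps4y2: cagctCTCCTCactcgcttgtgctctggga
Rpl39: taatcgcgttCTTCCggcctgtcctttctc
Last are paralogs with no TOP-like run in the window, shown without capitals:
Rps27l: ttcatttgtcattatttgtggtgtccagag
Rpl7l1: cagatgcattgtgggaagcctttaactcgt
Rpl22l1: gtggatatccggttccgagttgcgcagcgc
In GRCr8 the windows of the called members lie at chr18:70856266-70856295 on the plus strand for Rpl17, chr3:36661930-36661959 on the plus strand for Rpl12 and chr4:183000903-183000932 on the plus strand for Rps4y2. Over the 32 tested members with the TOP-like start the median log2 fold change against P3 was -0.0606 for P9 and -0.155 for FFSS, and over 22 without it -0.0039 and -0.14. The difference between these medians was not tested.

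The unit is FPKM, fragments per kilobase of the deposited gene length and per scaled library total, so members can be compared with each other per length. The deposited lengths of members ran from 246 to 5151 bases, and 7 members had at least 2000 bases, long for a ribosomal protein mRNA; a level per length is then lower than the mRNA itself would give. Between 13264930 and 15323790 fragments per library had been assigned to genes. Of the 87 rows, 83 passed the filter of at least 1 FPKM in at least 3 libraries, which 13059 genes passed. The other 4 were Rpl10a and Rpl23a, at 0 fragments in every library, Rpl3l with 8 fragments in all and Rpl30l1 with 1. For Rpl10a and Rpl23a a value of 0 is a statement about the row: a pseudogene row described as L10a-like (LOC100363537) stood at a mean of 28.2 FPKM. In all, 33 rows outside the rule, with a mean of at least 20 FPKM, were described as cytosolic ribosomal proteins, 25 of them under locus names. These included an S14-like gene (LOC100911847) at a mean of 703 FPKM, so the members do not cover every ribosomal protein.

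Ribosomal protein mRNAs were among the most abundant of these cells. Of the 87 rows, 64 had a mean of at least 100 FPKM over the 9 libraries and 20 were among the 100 genes with the highest mean. Rpl41, which encodes the smallest ribosomal protein, was the highest member and ranked 18 among all genes. Its levels were 2214, 2180 and 2566 FPKM in P3, 762, 2533 and 2072 FPKM in P9, and 2373, 2913 and 1823 FPKM in FFSS. Rps20 followed at a mean of 1841 FPKM and Rplp0, the base of the stalk, at 1598 FPKM. Only 5 tested members were under 10 FPKM, and the lowest were Rpl39l at 1.08, the Rpl21 row on chromosome 3 at 1.61 and Rps4y2 at 4.06 FPKM. The other members under 10 FPKM were Rpl10l, a paralog of Rpl10, at 8.72 FPKM and Rpl8 at 8.43 FPKM, beside which a locus-named L8-like row (LOC100360117) stood at 31.2 FPKM.

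**Figure D1:**
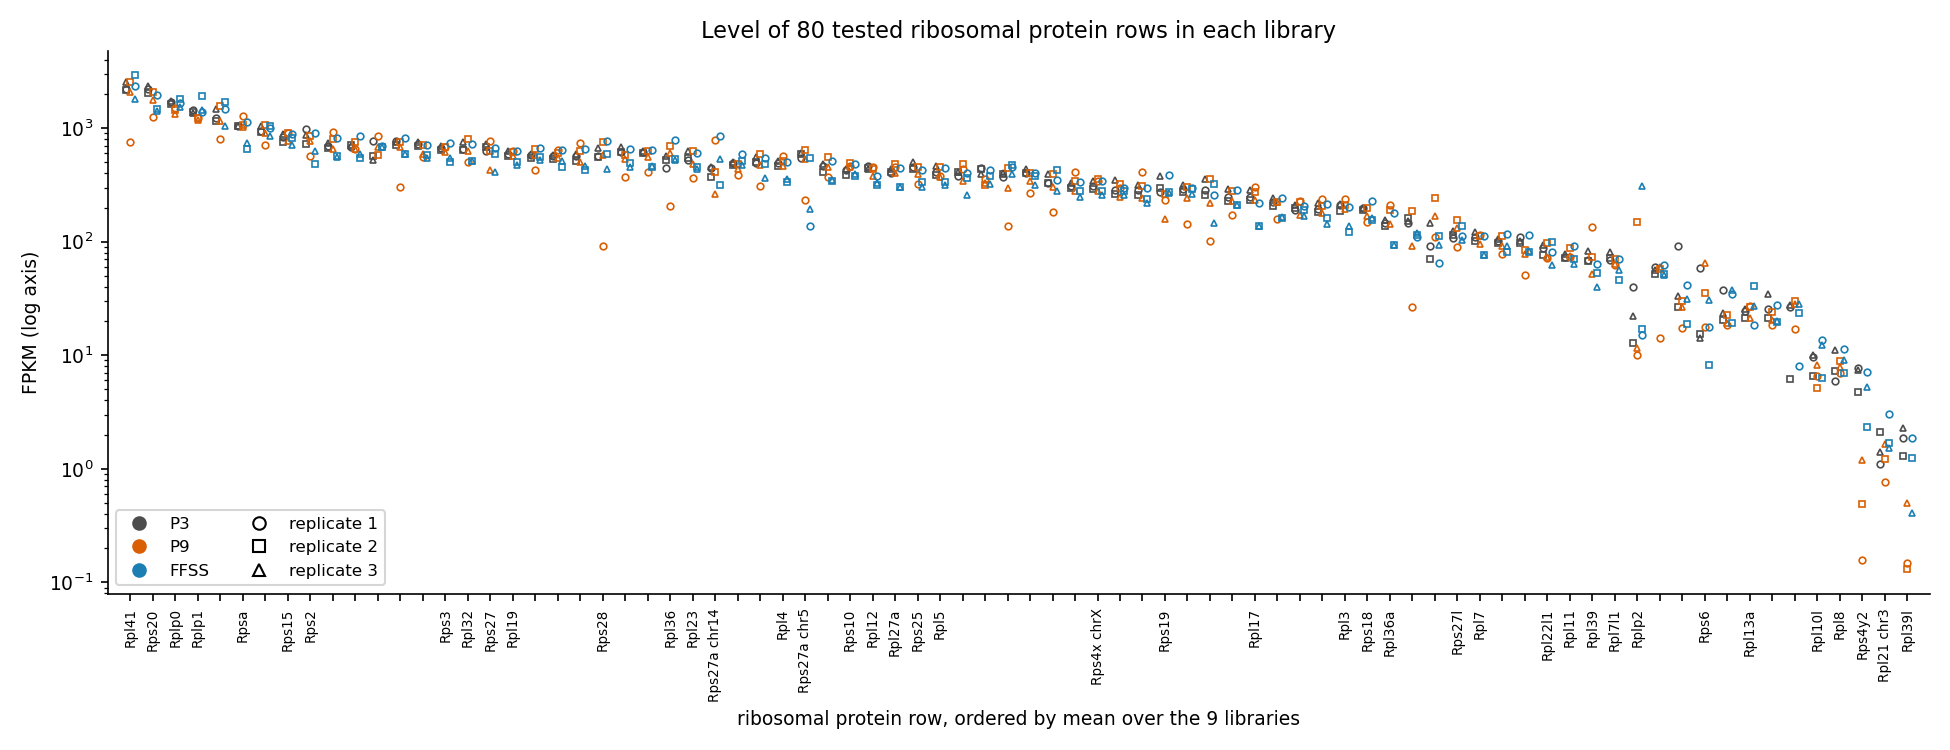
FPKM (log axis) of 80 tested ribosomal protein rows in the 9 libraries, with most rows named in the text labelled, 1 symbol per library with colour for the group and shape for the replicate number. Most rows lie above 100 FPKM with the groups on top of each other, and the separate orange circles below many short, abundant rows are P9 replicate 1.

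P9 replicate 1 and FFSS replicate 1 stood apart within their groups, and counts that they move by over 1.5 times are also given without them. In P9 replicate 1, 32 of the 83 members differed by more than 0.5 on the log2 scale from the mean of the other 2 P9 libraries, 28 of them downwards; in P3 no library had more than 8 such members. Rps28, a small protein of the small subunit, stood at 92.6 FPKM there against 749 and 578 FPKM in the other P9 libraries. Rpl36 stood at 205 against 703 and 602 FPKM. The shift ran with length: the median deviation was -0.47 over the 35 members under 600 bases and 0.02 over the 48 longer ones. Other genes of at least 50 FPKM had medians of -0.29 (157 genes under 600 bases) and -0.05 (1339 longer genes) in the same library. Library fragments of 370 to 420 bases had been selected, per the labels, about the length of these mRNAs; the part of fragment length or RNA quality in the shift was not tested. FFSS replicate 1 differed the other way: its members lay a median of 0.42 above the mean of FFSS replicates 2 and 3.

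**Figure D2:**
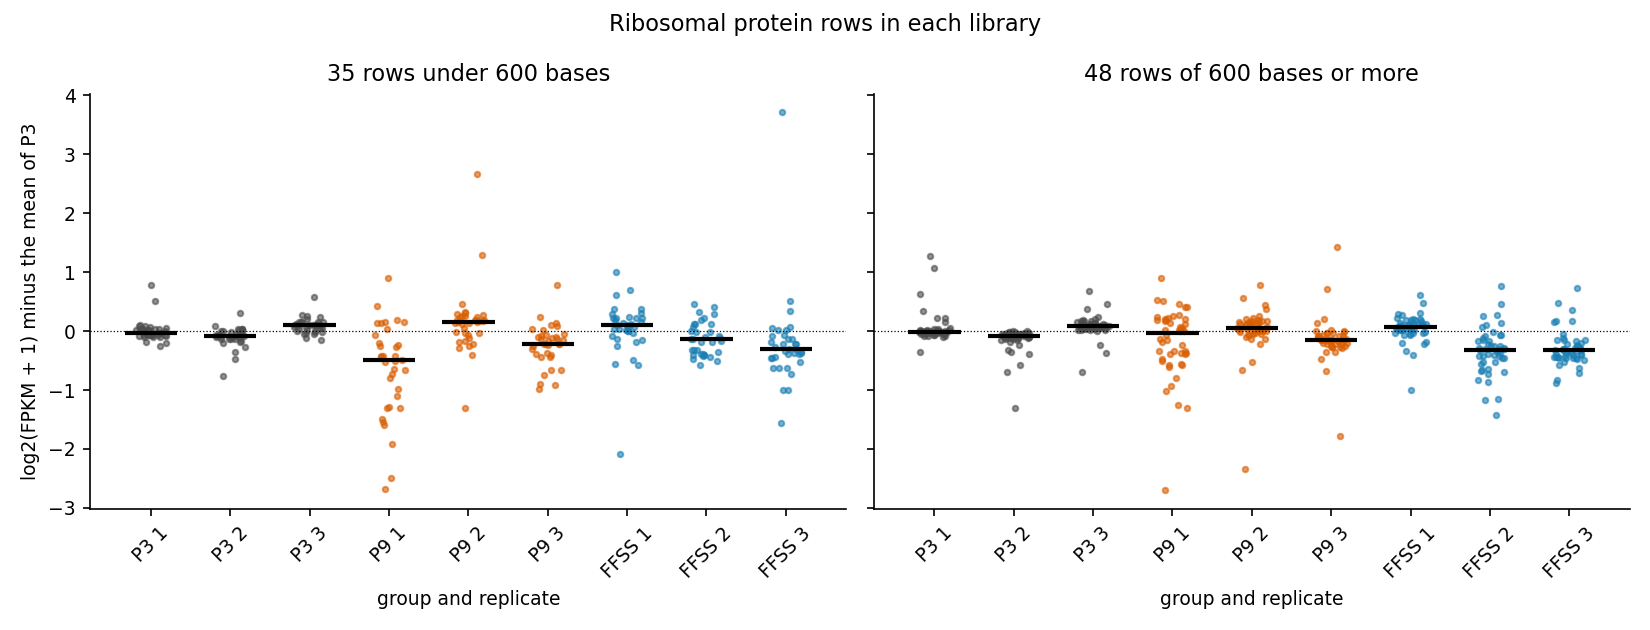
Each point is a tested ribosomal protein row, as log2(FPKM + 1) minus its mean in P3, by library; the left panel holds the 35 rows under 600 bases and the right panel the 48 longer rows, and black bars are medians. P9 replicate 1 is low in the left panel only, and FFSS replicates 2 and 3 are low in both.

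The share of ribosomal protein mRNAs among all messages overlapped between the groups. Their summed FPKM was 8.22, 7.78 and 8.69% of all FPKM in P3 (mean 8.23 ± 0.452, SD, n = 3). It was 7.04, 8.28 and 7.36% in P9 (mean 7.56 ± 0.647, SD, n = 3), and 7.96, 6.52 and 6.29% in FFSS (mean 6.93 ± 0.902, SD, n = 3). P9 replicate 2 and FFSS replicate 1 lay within the range of P3, and the other 4 model libraries below it. The large subunit members took 4.47, 4.13 and 3.87% and the small subunit members 3.76, 3.43 and 3.06% as group means of P3, P9 and FFSS. Counted as fragments, which favours long mRNAs, the members took 2.76, 2.68 and 2.51%. These are shares of polyadenylated RNA: fewer cells of a type and less RNA per cell cannot be told apart, and the amount of ribosomal protein mRNA per cell was not measured.

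In the fit of all 9 libraries, only minor paralogs among the ribosomal protein genes were called at passage 9. None of the 83 tested members rose and 2 fell (2.41%), Rps4y2 and Rpl39l, both far below their parent genes in level (limma on log2(FPKM + 1), a scale that understates the change of low genes, Benjamini-Hochberg adjusted p under 0.05 over all 13059 genes). Over all tested genes 5.39% were called higher and 4.44% lower. At an unadjusted p under 0.05, 0 members were higher and 5 lower, beside 1579 higher and 1445 lower of all 13059 genes. After adjustment voom also called 0 members higher and 2 lower. With P3 and P9 fitted alone, 0 members were called higher and 3 lower, beside 1379 higher and 1087 lower of 12405 genes. The median log2 fold change of the members was -0.10, against -0.0026 over all tested genes, with 31 members above 0 and 52 below. For 63 members the 95% confidence interval lay within a 2-fold change either way, and for the other 20 it reached beyond. Without P9 replicate 1 the count was 0 higher and 1 lower, Rps4y2, with 2.97% of all genes higher and 2.77% lower, and the median was -0.02. Without FFSS replicate 1, which enters the fit through the shared error, the P9 count was again 0 higher and 2 lower, with 9.53% of all genes higher and 7.78% lower.

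Rps4y2, a copy of the small subunit gene Rps4x, fell most. Its row lies on chromosome 4 (Rnor_6.0, 182745448 to 182746381, plus strand), with a span equal to its deposited length of 934 bases, that is, without an intron. It stood at 7.79, 4.74 and 7.40 FPKM in P3, at 0.157, 0.491 and 1.19 FPKM in P9, and at 7.16, 2.35 and 5.26 FPKM in FFSS. All P9 libraries lay below all P3 and FFSS libraries, while FFSS overlapped P3. The log2 fold change was -2.27 ± 0.356 (SE) in P9, with a limma adjusted p of 0.00453, and -0.44 ± 0.356 in FFSS (adjusted p = 0.406). The direct comparison of the models gave -1.83 for P9 minus FFSS (adjusted p = 0.00538). The call held in all 17 other settings, with adjusted p from 0.00164 to 0.0269. In fragments the row held 110, 61 and 102 in P3 and 2, 7 and 18 in P9, a ratio of 10.4 with a 95% exact interval of 7.01 to 16.1 for counting error only. The row lies inside the opposite-strand gene Tmtc1, which stood at 0.639 to 1.55 FPKM, and whether counting used strand is not given in the sources used here. Rps4x itself, on the X chromosome, stood at 308, 292 and 341 FPKM in P3 and 343, 358 and 281 FPKM in P9, with overlapping groups and a log2 fold change of 0.06 (adjusted p = 0.869).

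Rpl39l, the paralog of Rpl39 best known from testis (chromosome 10, 5529589 to 5533695, minus strand), stood at 1.86, 1.31 and 2.31 FPKM in P3 and 0.147, 0.131 and 0.496 FPKM in P9. The groups did not overlap, and the log2 fold change was -1.16 ± 0.282 (SE, limma adjusted p = 0.0331). It rested on 40 fragments in P3 and 6 in P9, a ratio of 6.88 with a 95% exact interval of 2.9 to 19.8 for counting error only. The call was lost in 8 of 16 other settings (adjusted p from 0.00817 to 0.132), among them each fit that left out a P3 or P9 library; without P9 replicate 1 the adjusted p was 0.112. In FFSS it stood at 1.88, 1.24 and 0.405 FPKM, overlapping P3. Its parent Rpl39 stood at 68.4, 67.5 and 82 FPKM in P3 and 136, 72.7 and 51.8 FPKM in P9.

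Under shear stress 3 ribosomal protein genes were called, all lower, and many more lay low in FFSS replicates 2 and 3 alone. None of the 83 members rose and 3 fell (3.61%), among them Rpl17 and Rpl12 of the large subunit. Over all tested genes 11.4% were called higher and 10.4% lower. At an unadjusted p under 0.05 the members gave 0 higher and 7 lower, beside 2410 higher and 2465 lower of all 13059 genes. After adjustment voom gave 0 members higher and 3 lower. The median log2 fold change was -0.16 over the members and -0.01 over all tested genes, with 19 members above 0 and 64 below, and the interval lay within a 2-fold change for 68.

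Rpl12, which sits at the base of the stalk and helps to recruit elongation factors (chromosome 3, Rnor_6.0 positions 12009578 to 12011666, on the plus strand), stood at 462, 449 and 434 FPKM in P3 and 378, 314 and 332 FPKM in FFSS. All FFSS libraries were below all P3 libraries, and the log2 fold change was -0.40 ± 0.12 (SE, limma adjusted p = 0.0444). A locus-named L12-like row (LOC102555453) stood at 154, 156 and 171 FPKM in P3 and 149, 134 and 119 FPKM in FFSS, and fragments of near-identical copies may be split between such rows.

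Rpl17, a protein that lines the exit tunnel of the large subunit, stood at 246, 232 and 287 FPKM in P3, 301, 272 and 231 FPKM in P9, and 220, 139 and 137 FPKM in FFSS. FFSS lay below both other groups without overlap. The log2 fold change was -0.65 ± 0.198 (SE, limma adjusted p = 0.0453) in FFSS and 0.07 in P9 (adjusted p = 0.88), and P9 minus FFSS was 0.72 (adjusted p = 0.0239). Its row lies on chromosome 18 (Rnor_6.0, 70970596 to 70975494, plus strand) and overlaps the same-strand gene RGD1562987, which stood at 56.5 to 104 FPKM. The calls of Rpl12 and Rpl17 held in 8 and 7 of 17 other settings, and each was lost on leaving out any P3 library, P9 replicate 2, or FFSS replicate 2 or 3, with adjusted p up to 0.151.

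The low values were unevenly spread over the FFSS libraries. In FFSS replicates 2 and 3, 56 and 66 of the 83 members lay below all 3 P3 libraries (67.5 and 79.5%), against 43.2 and 41.5% of the other tested genes. In FFSS replicate 1 there were 10 such members (12%, against 39.0% of the other genes), and 34 lay above all P3 libraries (41.0%, against 38.0%). In P9, 47, 11 and 59 members lay below all P3 libraries in replicates 1, 2 and 3 (56.6, 13.3 and 71.1%), against 38.1, 36.0 and 35.8% of the other genes. Without FFSS replicate 1, 15 members fell and 0 rose, with 19.3% of all genes called higher and 19.7% lower in that fit, so the members' share of 18.1% was near the share of all genes; the median of the members was -0.30. Among the 15 were Rpl17, Rpl3, Rpl7, Rpsa, Rpl4, Rpl7l1, Rpl12, Rpl36a, Rpl27a, Rps25, Rps3, Rps20 and Rps2, with log2 fold changes between -0.88 and -0.36. Rpl3, which lies near the peptidyl transferase centre, was at 122 and 137 FPKM in FFSS replicates 2 and 3, 200 FPKM in FFSS replicate 1 and 210, 188 and 215 FPKM in P3. The sum over 9 measured leukocyte markers also differed between groups. It was 9.48 to 11.1 FPKM over the P3 libraries, 5.17 to 5.66 over P9 and 42.1 to 101.5 over FFSS, with Cd3e at 0. Only 2 of the 9, Cd14 and Cd68, passed the filter, and both were called higher in FFSS (log2 fold changes 2.67 for Cd14 and 0.97 for Cd68). The rise of the sum is therefore not a rise of the leukocyte list as a whole. The part of these mRNAs in the members' values was not tested.

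**Figure D3:**
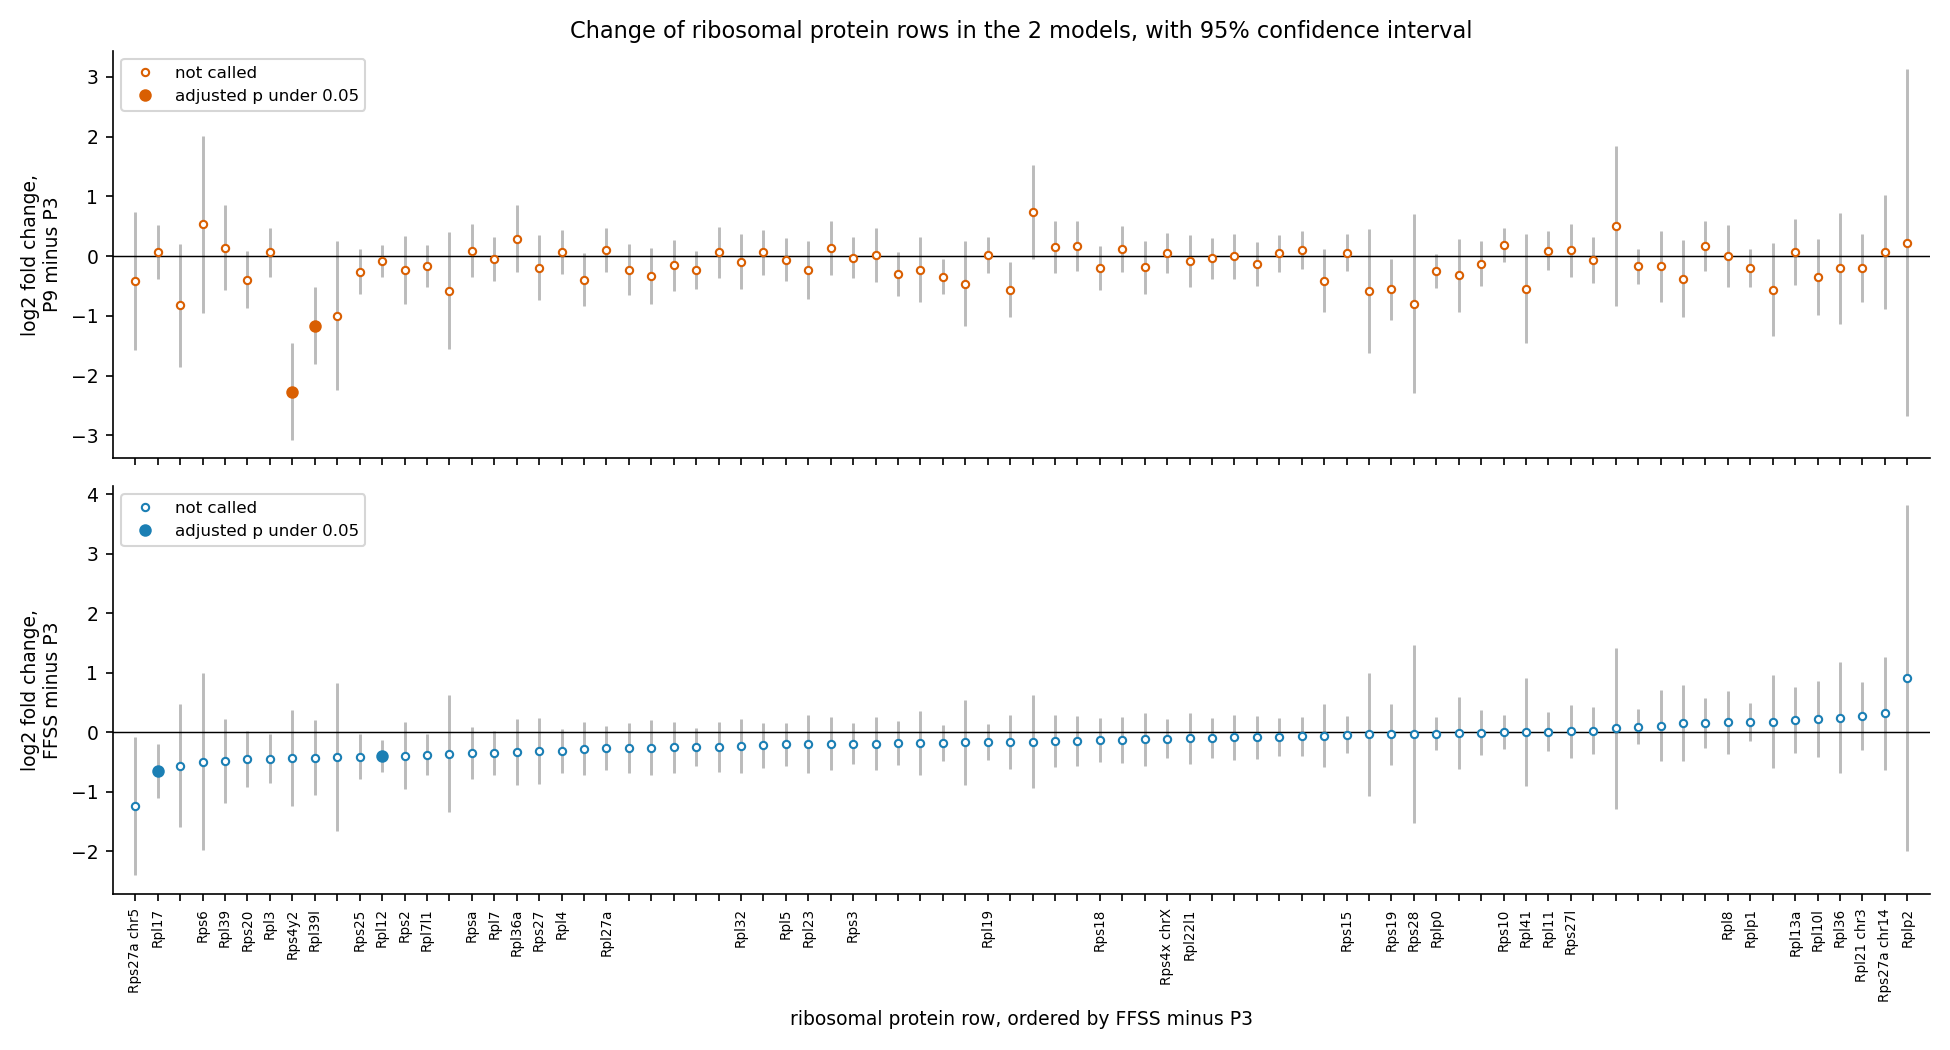
Log2 fold change of 80 tested ribosomal protein rows with its 95% confidence interval, P9 minus P3 above and FFSS minus P3 below, in the same order; filled points have an adjusted p under 0.05. Rps4y2 and Rpl39l are filled above, and Rpl17 and Rpl12 below, where most points lie under 0.

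Counted by libraries that do not overlap between groups, a smaller share of members than of all genes was set apart, and that difference was not tested. In P9, 1 member (Rps10) lay above P3 in all libraries and 8 below (9.64% of 83), against 20.9 and 19.1% of all tested genes. The row Rps10l1 lay below P3 in all P9 libraries, and the sum of Rps10 and Rps10l1 overlapped (482.9 to 538.9 FPKM in P3, 516.5 to 575.4 in P9). In FFSS, 0 members lay above and 7 below (8.43%), against 20.1 and 22.3%. Compared directly, P9 minus FFSS, 1 member was higher in P9 (Rpl17) and 1 lower (Rps4y2), with 16.1% of all genes called higher and 15.3% lower. Without FFSS replicate 1 these were 15 higher and 2 lower, with 23.7 and 22.0% of all genes. The models share the P3 libraries, so their changes are not independent of each other.

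The stalk, which carries the elongation factors to the ribosome, is built from Rplp0, Rplp1, Rplp2 and Rpl12. Rplp0 stood at 1711, 1640 and 1738 FPKM in P3, 1497, 1456 and 1322 FPKM in P9, and 1674, 1823 and 1524 FPKM in FFSS. P9 lay below P3 in every library, without passing the test (log2 fold change -0.25, limma adjusted p = 0.268). Rplp1 did the same at 1432, 1378 and 1372 FPKM in P3 and 1218, 1225 and 1185 FPKM in P9 (-0.20, adjusted p = 0.445), and stood at 1398, 1907 and 1456 FPKM in FFSS. Rplp2 was the least steady member of all. It stood at 39.9, 12.9 and 22.4 FPKM in P3, 10.1, 150 and 11.6 FPKM in P9, and 15.2, 17.0 and 310 FPKM in FFSS, so that 1 library in each model was over 10 times the others of its group. A locus-named row described as similar to P2 (LOC498555) stayed within 123 to 168 FPKM over the 9 libraries.

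Loading controls among the members were steady to different degrees. Over all 9 libraries the SD of log2(FPKM + 1) was 0.147 for Rplp0, 0.15 for Rpl19, 0.198 for Rps18, 0.252 for Rpl32 and 0.310 for Rpl13a. The Rpl13a row had a mean of 25.8 FPKM, beside which a row without a symbol, described as L13a, stood at 38.0 FPKM. Among the steadiest members were Rps15 (0.134) and Rps10 (0.143), and the least steady were Rplp2 (1.71), Rps4y2 (1.13) and Rps6 (0.95). None of the 5 loading controls was called in P9 or FFSS against P3 by limma on log2(FPKM + 1) or by voom; at an unadjusted p under 0.05 the first gave 0 in both and voom gave 1 lower in P9. The intervals of the log2 fold change were -0.53 to 0.03 in P9 for Rplp0 and -0.29 to 0.32 for Rpl19. Within groups the median SD of the members was 0.102 in P3, 0.277 in P9 and 0.296 in FFSS, against 0.0766, 0.168 and 0.232 for 1496 other genes of at least 50 FPKM. These sets are unlike in level and length. The limit of 50 FPKM was not applied to the 83 members, of which 35 were under 600 bases, against 157 of the other genes.

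Members with known work outside the ribosome were not called in either model against P3, with 9 of them tested. At an unadjusted p under 0.05 limma gave 1 lower in P9 (Rps19) and 0 in FFSS, and voom called 0 after adjustment. Without FFSS replicate 1, Rpsa and Rps3 fell in FFSS. Rpl5 stood at 408, 385 and 460 FPKM in P3, 379, 458 and 370 FPKM in P9, and 446, 336 and 317 FPKM in FFSS. Rpl11 stood at 72.6, 72.1 and 77.3 FPKM in P3, 73.8, 88.7 and 75.0 FPKM in P9, and 91.7, 70.6 and 63.7 FPKM in FFSS. Both overlapped P3 in both models, with adjusted p between 0.385 and 0.971. Rpl23, which also binds Mdm2, Rps3, a protein with a role in DNA repair, Rpsa, the laminin receptor precursor, and Rps27l, a p53 target, had adjusted p between 0.228 and 0.956. Rps19, the gene most often mutated in Diamond-Blackfan anaemia, stood at 271, 295 and 377 FPKM in P3 and 231, 261 and 157 FPKM in P9. P9 lay below P3 in every library and the log2 fold change of -0.55 did not pass the test (limma adjusted p = 0.179). The row Rps19l2 stood at 91.5, 70.7 and 147 FPKM in P3 and 110, 241 and 169 FPKM in P9. The sum of both rows overlapped, at 363, 366 and 524 FPKM in P3 and 341, 502 and 327 FPKM in P9. Rps6, the substrate of the S6 kinases, ranged from 8.19 to 64.9 FPKM with no order by group. Of the p53 genes that free Rpl5 and Rpl11 act through, Mdm2 stood at 19.8, 23 and 19.9 FPKM in P3, 43.2, 38 and 39.6 FPKM in P9 and 38.2, 272 and 166 FPKM in FFSS. It rose in FFSS (log2 fold change 2.47, adjusted p = 0.0174) and was not called in P9 (0.92, adjusted p = 0.394), although neither model overlapped P3. The error of the fit is shared by all groups, so the wide spread of Mdm2 in FFSS enters its P9 test. The missing call in P9 is therefore not evidence of an unchanged level. The p53 list of 9 genes gave 1 higher and 0 lower in P9, and 1 higher and 1 lower in FFSS (11.1 and 22.2% called, beside 9.83 and 21.8% of all genes). Leaving out FFSS replicate 1, it gave 3 higher and 1 lower in P9, and 3 higher and 2 lower in FFSS; leaving out P9 replicate 1, it gave 0 in P9, and 1 higher and 2 lower in FFSS.

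Paralogs were compared with their parents within each library, as log2 ratios of FPKM + 1. Library scaling nearly cancels in such a ratio where both genes are far above 1 FPKM, and not where the paralog is near or below it. In 12 comparisons (6 pairs, each model against P3) the exact two-sided permutation test of 3 against 3 libraries cannot go below 0.1. That value was reached by Rps4y2 to Rps4x in P9, with a difference of -2.33, and Rpl39l to Rpl39 in P9, with -1.31; both had an adjusted p of 0.6 over the 12 comparisons. With a pseudocount of 0.1 these 2 differences were -3.56 for Rps4y2 and -2.68 for Rpl39l, so their size depends on the pseudocount. The other ratios of FPKM + 1 differed from P3 by -0.53 to 0.37, with p of 0.2 or more. Rps27l to Rps27 stood at -2.56, -2.56 and -2.55 in P3, -3.09, -1.99 and -1.70 in P9, and -2.57, -2.12 and -1.98 in FFSS. In P3 these ratios lay close together and those of both models on either side of them. Rpl22l1 stood at 88.5, 75.9 and 93.0 FPKM in P3, and no member row carries the symbol Rpl22; a row described as L22-like (LOC100360057) stood at 165, 169 and 180 FPKM there.

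Rows that share a symbol showed how much a single row can mislead. Rps27a, a fusion of ubiquitin and a small subunit protein, has a row with introns on chromosome 14 and an intronless row on chromosome 5. The chromosome 14 row stood at 447, 370 and 451 FPKM in P3, 783, 414 and 265 FPKM in P9, and 847, 319 and 533 FPKM in FFSS. On chromosome 5 the row stood at 549, 588 and 602 FPKM in P3, 233, 648 and 533 FPKM in P9, and 136, 550 and 195 FPKM in FFSS. Each was high where the other was low, spanning 3.2-fold and 4.75-fold, while their sum spanned 1.46-fold (728 to 1062 FPKM). The 4 rows of Rpl21 did not behave so: their sum was 490, 475 and 567 FPKM in P3, 142, 598 and 371 FPKM in P9, and 434, 490 and 320 FPKM in FFSS, low in P9 replicate 1. How fragments that match several rows were counted is not given in the sources used here.

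**Figure D4:**
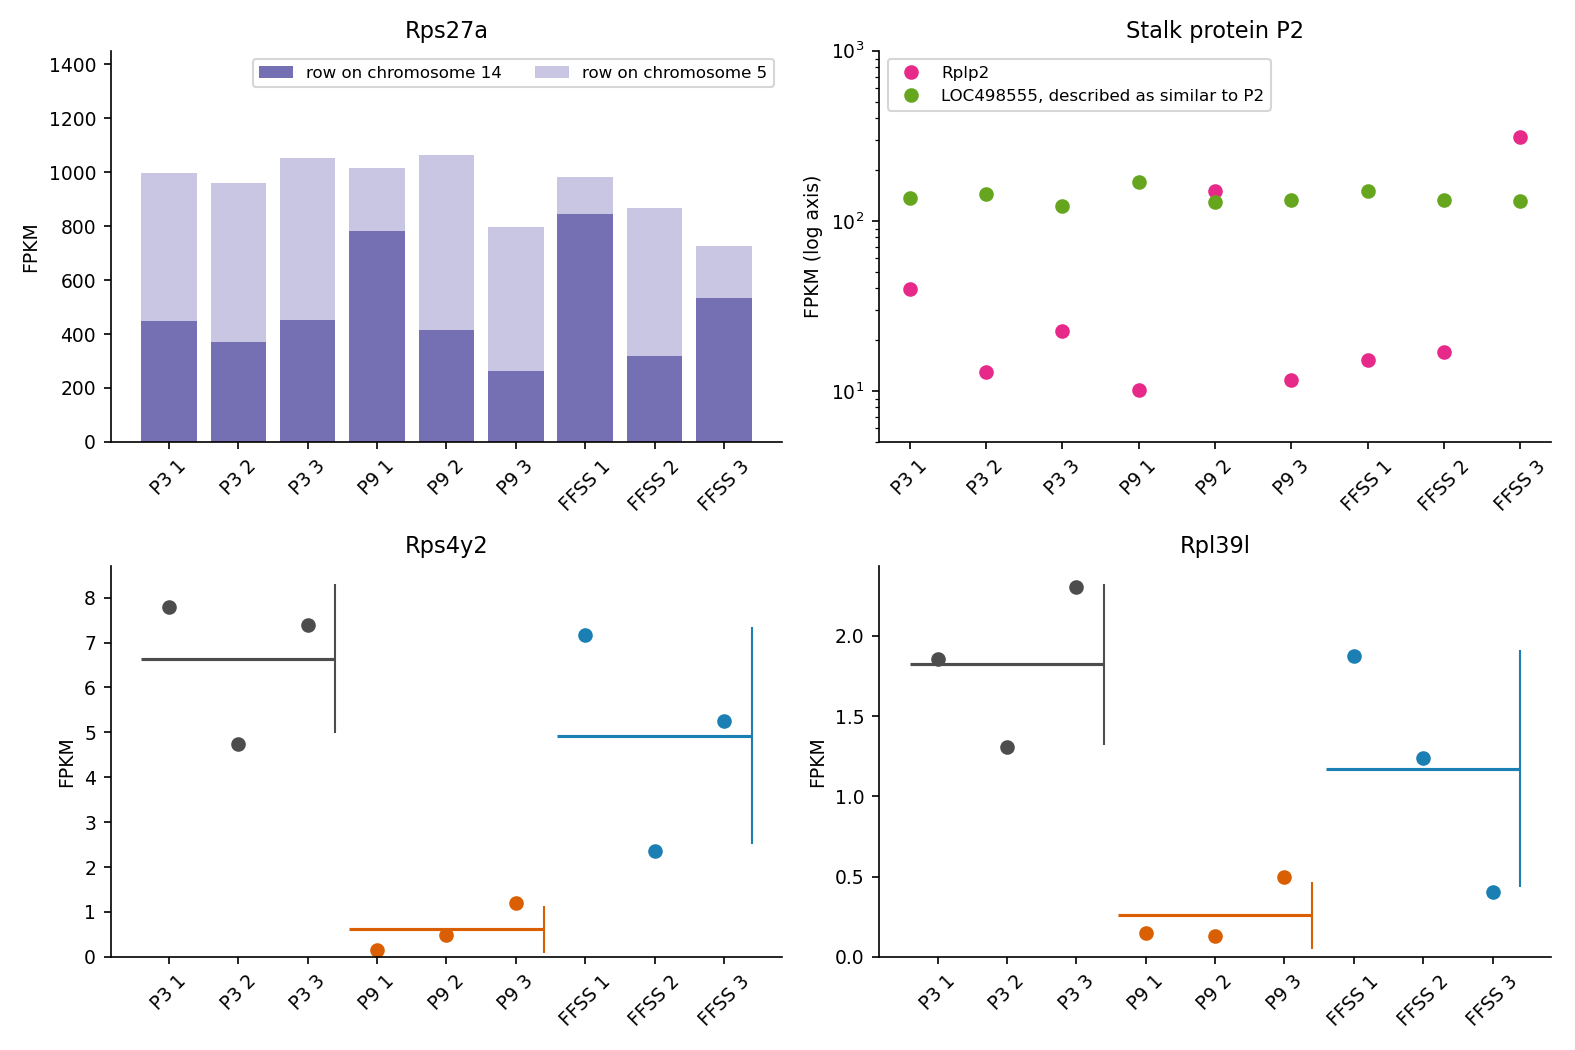
Upper left, FPKM of the Rps27a rows stacked by library, whose sum stays within 728 to 1062 FPKM while the parts trade places; upper right, Rplp2 and LOC498555 on a log axis. Lower panels, FPKM of Rps4y2 and Rpl39l by library with group means (horizontal lines) and SD (vertical lines, n = 3); the P9 points lie below all P3 points in both.

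The genes that build and serve ribosomes were set beside the members by lists drawn up by function. For every list the background is the share of all tested genes called, 5.39% higher and 4.44% lower in P9, and 11.4 and 10.4% in FFSS. Without FFSS replicate 1 these shares were 9.53 and 7.78% in P9, and 19.3 and 19.7% in FFSS. Without P9 replicate 1 they were 2.97 and 2.77% in P9. Ribosome assembly and nucleolar factors, which process ribosomal RNA and fold the subunits together, had 95 tested genes: 0 rose and 3 fell in P9, and 0 rose and 32 fell in FFSS (33.7%, beside 10.4% of all genes called lower). Their median log2 fold changes were -0.12 in P9 and -0.30 in FFSS, and without FFSS replicate 1 the FFSS count was 2 higher and 41 lower. Over 17 other settings 10 to 41 fell in FFSS, the fewest without P3 replicate 1, and 0 to 11 in P9, where 9 fell without FFSS replicate 1 and 0 without P9 replicate 1. Npm1, nucleophosmin, the main chaperone of the nucleolus, stood at 229, 241 and 242 FPKM in P3, 241, 217 and 201 FPKM in P9, and 167, 109 and 122 FPKM in FFSS. FFSS lay below P3 in every library (log2 fold change -0.86, limma adjusted p = 0.00769). Nop56, a core protein of the box C/D particles that modify ribosomal RNA, fell by 0.79 on the log2 scale (adjusted p = 0.00683), and Ddx21, a nucleolar helicase, by 0.77 (adjusted p = 0.00598). Utp14a, a factor of the early small subunit, fell in both models, by 0.59 in P9 (adjusted p = 0.0227) and 0.54 in FFSS (adjusted p = 0.021). Both comparisons use the same P3 libraries. The P9 call of Utp14a was lost without P3 replicate 1 and without P9 replicate 1, where 0 assembly factors were called lower in P9.

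Translation initiation factors had 38 tested genes, of which none was called in P9 and 1 rose and 10 fell in FFSS (median log2 fold change -0.11 and -0.30). In FFSS 28.9% of these factors were called, beside 21.8% of all genes. At an unadjusted p under 0.05 limma gave 1 higher and 3 lower in P9, and voom called 0 there after adjustment. Eif2s2, a subunit of the factor that brings the initiator tRNA, stood at 123, 128 and 123 FPKM in P3, 121, 113 and 107 FPKM in P9, and 92.4, 90.2 and 84.7 FPKM in FFSS. After shear stress the values lay below the others without overlap (log2 fold change -0.48, adjusted p = 0.00961). Eif3c fell by 0.52 (adjusted p = 0.0139) and Eif2b3, of the exchange factor of eIF2, by 0.64 (adjusted p = 0.0127). The count of fallen factors in FFSS ran from 2, without P3 replicate 1, to 19, without FFSS replicate 1. Of 12 genes listed as elongation and termination factors none was called in P9 (0 at an unadjusted p under 0.05, limma, and 0 by voom after adjustment). In FFSS 1 of the 12 fell, Eef1e1 (-0.59, adjusted p = 0.00943). Despite its symbol Eef1e1 is not itself an elongation or termination factor. Without FFSS replicate 1 the FFSS count was 1 higher and 4 lower.

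Regulators that act on TOP mRNAs moved in both directions in FFSS, 5 higher and 4 lower of 29 (31.0% called, beside 21.8% of all genes). In P9, 0 of 29 were called, where limma gave 4 higher and 2 lower at an unadjusted p under 0.05 and voom called 0. Larp1, the protein that binds the TOP motif, stood at 49, 47.7 and 46.9 FPKM in P3, 40.6, 44.2 and 41.4 FPKM in P9, and 30.7, 21.8 and 29.3 FPKM in FFSS (-0.80 in FFSS, adjusted p = 0.00521). Ddit4, an inhibitor of mTOR complex 1, stood at 7.42, 6.28 and 8.47 FPKM in P3 and 19.4, 77.4 and 61.3 FPKM in FFSS (2.48, adjusted p = 0.00743). Its relative Ddit4l rose by 3.13 (adjusted p = 0.000712), and Pdcd4, an inhibitor of initiation, by 1.42 (adjusted p = 0.0185). FFSS replicate 1 was the lowest FFSS library for Ddit4, Ddit4l and Pdcd4. The same list without FFSS replicate 1 gave 9 higher and 6 lower in FFSS, and 2 higher and 2 lower in P9. These are mRNA levels, and the phosphorylation through which mTOR acts was not measured.

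RNA polymerase I genes and their regulators gave 1 higher and 1 lower of 25 in P9, and 3 higher and 1 lower in FFSS (8.0 and 16.0% called, beside 9.83 and 21.8% of all genes). These counts without FFSS replicate 1 were 1 higher and 3 lower in P9, and 4 higher and 1 lower in FFSS; without P9 replicate 1 they were 0 higher and 1 lower of 24 in P9, and 3 higher and 2 lower in FFSS. Polr1a, the largest subunit of the enzyme that makes ribosomal RNA, stood at 7.16, 5.97 and 8.13 FPKM in P3, 7.38, 5.61 and 6.32 FPKM in P9, and 4.16, 2.67 and 3.02 FPKM in FFSS (-0.92 in FFSS, adjusted p = 0.00829). Myc, a driver of ribosome production, stood at 19.1, 18.6 and 18.4 FPKM in P3, 7.93, 9.09 and 8.74 FPKM in P9, and 16.8, 45.7 and 32.3 FPKM in FFSS. P9 lay below both other groups, and the call was made for P9 minus FFSS (-1.66, adjusted p = 0.00321) and missed for P9 minus P3 (-1.04, adjusted p = 0.0555). The spread of Myc in FFSS enters the P9 minus P3 test too, through the error shared by all groups. Mycn rose in P9 from 0.177, 0.334 and 0.286 FPKM to 1.15, 2.21 and 3.32 FPKM (1.29, adjusted p = 0.0122). Mitochondrial ribosomal proteins, a separate ribosome with its own genes, gave 1 higher and 0 lower of 73 in P9 and 6 higher and 3 lower in FFSS. That was 1.37 and 12.3% called, below the 9.83 and 21.8% of all genes, with medians of -0.01 and 0.02. Their counts without FFSS replicate 1 were 2 higher and 0 lower in P9, and 8 higher and 9 lower in FFSS; without P9 replicate 1 the FFSS counts were 7 higher and 5 lower. Ribosome quality control and recycling factors gave 1 higher and 2 lower of 17 in FFSS (17.6% called, beside 21.8% of all genes). Without FFSS replicate 1 these factors gave 5 higher and 4 lower in FFSS, when 1 was also higher in P9. In P9 limma and voom called 0 of them, and limma gave 1 higher and 0 lower at an unadjusted p under 0.05. The 4 ribosomal protein genes with fused or other names gave 0 calls in either model, and 0 at an unadjusted p under 0.05, with limma and with voom; without FFSS replicate 1, 1 of them fell in FFSS.

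**Figure D5:**
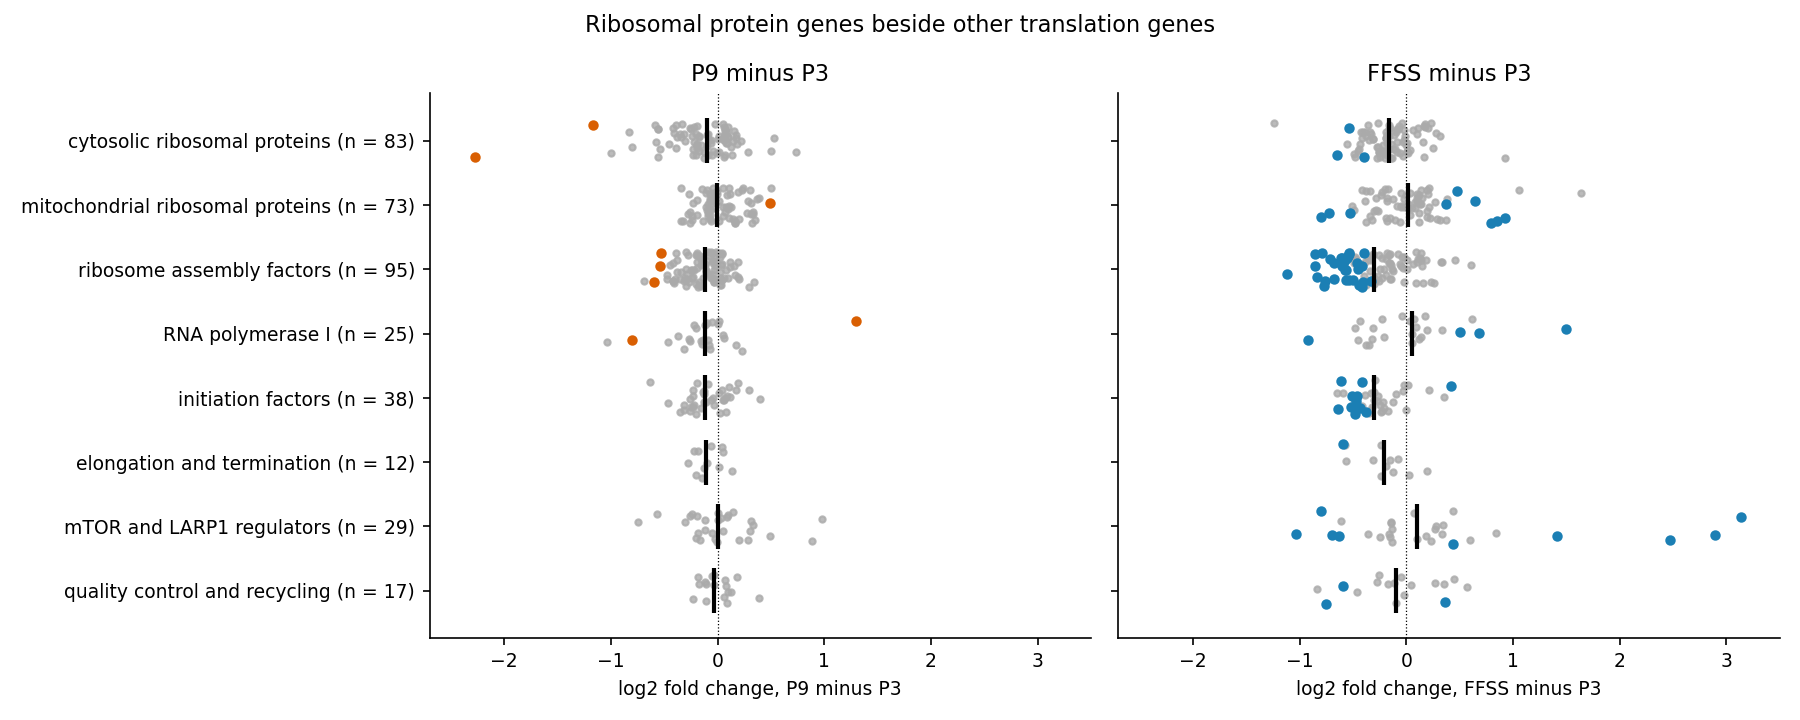
Log2 fold changes of the tested ribosomal protein rows and of other translation lists, P9 minus P3 on the left and FFSS minus P3 on the right; coloured points have an adjusted p under 0.05 and black bars are medians. The median of the assembly factors is at -0.12 on the left and -0.30 on the right, and that of the ribosomal protein rows at -0.10 and -0.16.

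The labelled cell type was checked against marker lists. Cartilage and mesenchymal markers were present as a sum in every library. The 12 genes summed to 17000 to 18350 FPKM among P3 libraries, to 11500 to 12550 among P9 and to 11020 to 12670 among FFSS. Of the 12, 11 passed the filter, and they moved in opposite directions. Their log2 fold changes ran from -2.31 to 2.12 in P9 and from -1.68 to 1.29 in FFSS. The sum therefore does not speak for each marker. Endothelial, epithelial and erythroid markers stayed under 3 FPKM in sum, with Cdh5, Tie1, Emcn, Krt5, Krt19 and the haemoglobin genes at 0. Skeletal muscle markers reached sums of 8.63 to 20.6 FPKM among P3 libraries, 44.2 to 50.8 among P9 and 10.6 to 39.3 among FFSS. Of 7 measured muscle markers 3 passed the filter, with 2 called higher in P9, and 1 higher and 1 lower in FFSS. Their part in the members' values was not tested.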

How the data were processed

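RNA had been taken up on poly-T beads and made into 9 libraries from random-hexamer cDNA, per the labels' protocols. The authors deposited one table of FPKM per gene and library with gene lengths and annotation, per the file headers. HISAT2 2.0.5, featureCounts 1.5.0-p3 and the build Rnor_6.0 are named in the submitters' processing notes; settings, strand and the treatment of fragments with several matches are not given in the sources used here. FPKM times gene length came out as whole multiples of 1 step per library for all values (within 0.01), so fragments were recovered; the steps equal median-of-ratios size factors rather than library totals, from which they depart by up to 5.13%. One fragment on a gene of 1 kb is worth 0.0619 to 0.0733 FPKM, and 3 fragments 0.186 to 0.22.

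Genes reaching 1 FPKM or more in 3 or more libraries were tested with limma 3.58.1 (R 4.3.3), with trend, on log2(FPKM + 1) over all 9 libraries and group means, with 6 residual and 2.93 prior degrees of freedom and Benjamini-Hochberg adjustment over all tested genes at 0.05. Paralog ratios were tested by exact permutation. Tables and figures were made with Python 3.11.15, numpy 2.4.6, pandas 2.3.3, scipy 1.17.1 and matplotlib 3.10.9, and the fit was tested on simulated data. The members and gene lists were chosen with earlier results of these data known. Always named were the members in paralog pairs, loading controls, stalk and members with work outside the ribosome; to these came, per comparison, up to 8 called members each way, the 3 highest and 3 lowest members, and the 3 with the largest and smallest spread. From each other list up to 4 called genes per comparison could be named, or the 2 with the smallest adjusted p. Rps28, Rpl36, Rpl8, Rps10l1, Rps19l2, the Rps27a rows and the members called only without FFSS replicate 1 were chosen after their values were seen. Alternatives were other pseudocounts, filters, scalings and thresholds, voom on recovered fragments, 2 groups alone, a replicate block, and each library left out. Some members are not reported here by name or drawn by row, and stay in all counts. Small RNA libraries were not analysed here.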

Additional observations from a re-analysis of the deposited data

Results flagged for a closer look

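The effects of the models differed for 2 ribosomal protein rows, by the direct test of P9 minus FFSS (limma, adjusted over all tested genes). For Rpl17 the effect of passage 9 exceeded that of shear stress by 0.72 on the log2 scale (adjusted p = 0.0239); the P9 libraries lay at 231 to 301 FPKM and the FFSS libraries at 137 to 220 FPKM, and the call was kept in 12 of 17 other settings (adjusted p from 0.00104 to 0.088). For Rps4y2 the difference was -1.83 (adjusted p = 0.00538), with all 3 P9 libraries below all 3 FFSS libraries, and the call was kept in 17 of 17 other settings.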

How the results depend on the processing

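Counts of called members were small and moved with the settings. For P9 minus P3 the 2 lower members became 1 with no filter, with a filter of at least 5 FPKM and at an adjusted p under 0.01. The count was 3 when only the 2 groups were fitted, and 1 to 2 on leaving out single libraries. For FFSS minus P3 the 3 lower members became 0 with no filter, 1 when only the 2 groups were fitted and 0 at an adjusted p under 0.01, and ran from 0 to 15 on leaving out single libraries, 15 without FFSS replicate 1. For P9 minus FFSS the 1 higher member became 8 after rescaling to equal sums, when 2744 of 13057 genes were called higher. It became 0 with only the 2 groups, 2 with voom and 0 at an adjusted p under 0.01, and ran from 0 to 15 on leaving out libraries. The 1 lower member became 2 with voom and ran from 1 to 3. Deviations of same-numbered libraries from their group means had r from -0.0408 to 0.0331, and those of differently numbered ones from -0.0653 to 0.0608. With 3 libraries per group these values cannot decide whether the numbers pair libraries, and the labels do not say. With a replicate block the counts were 1 lower for P9 minus P3, 1 lower for FFSS minus P3, and 2 higher and 2 lower for P9 minus FFSS. Counted as fragments the members' share was 2.76, 2.68 and 2.51% in P3, P9 and FFSS, and with the C at the annotated start 30.6% of promoters matched. Paralog ratios near 0 changed sign without passing any test: Rpl39l to Rpl39 in FFSS was -0.28 with a pseudocount of 0.1 and -0.031 to 0.17 on leaving out libraries, Rpl7l1 to Rpl7 in FFSS -0.13 to 0.031 (0.0071 without P3 replicate 2), Rps4y2 to Rps4x in FFSS -0.50 to 0.0021, and Rpl36al to Rpl36a in P9 -0.58 to 0.016. The cause of these changes was not tested beyond the smaller number of libraries or genes in some fits. At this depth changes of Rpl3l and Rpl30l1 were not detectable.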
